A study of Mus musculus with 38 samples.

Results

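MHC class I antigen presentation was followed through 9 genes in the mouse hippocampus. H2-K1, H2-D1 and H2-T23 encode heavy chains and B2m their light chain. Tap1, Tap2 and Tapbp load peptides, and Psmb8 and Psmb9 encode catalytic subunits of the immunoproteasome. The genes were listed by name for their role and found by Ensembl identifier in the count tables, as 9 of 48709 counted genes.

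RNA of whole hippocampus was sequenced from 38 C57BL/6 mice in 8 groups set by genotype, chow and age. WT or APPPS1ΔE9 mice received placebo or chow with anle138b, a small molecule directed at protein oligomers. They were analysed at 6 months (4 mice per group) or at 10 months. The study calls these cohorts the pre-plaque and post-plaque group after the stage at which chow was started, so the name does not mean that APPPS1ΔE9 mice of 6 months had no plaques when analysed. The older cohort held 10 WT mice, 5 on each chow, and 12 APPPS1ΔE9 mice, 5 on placebo and 7 on anle138b. APPPS1ΔE9 mice carry mutated human APP together with human presenilin 1 that lacks an exon, both expressed from a prion protein promoter, so amyloid deposition is driven by transgenes. The tissue holds all cell types of the hippocampus, so a change in the number of cells of a type and a change in RNA per cell cannot be told apart.

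A class I molecule is a heavy chain bound to β2-microglobulin and a short peptide cut from proteins inside the cell, and it is read by CD8 T cells and natural killer cells. Proteasomes cut the peptides, the TAP transporter carries them into the endoplasmic reticulum and tapasin helps to place them on the heavy chain. Interferons induce the pathway, and in the brain microglia and endothelial cells are known to express much of it, while class I molecules of neurons have been linked to synapses.

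All genes but B2m lie in the MHC on chromosome 17 of GRCm38. B2m is at chr2:122147686-122153083 on the plus strand, H2-K1 at chr17:33996017-34000347 on the minus strand, H2-D1 at chr17:35262730-35267499 on the plus strand and H2-T23 at chr17:36029773-36032855 on the minus strand. Psmb9 (chr17:34181987-34187764, minus strand), Tap1 (chr17:34187553-34197225, plus), Psmb8 (chr17:34197721-34201454, plus) and Tap2 (chr17:34203527-34216321, plus) stand side by side, and Tapbp is at chr17:33915899-33929292 on the plus strand. These are whole annotated genes in GENCODE M21, exons and introns included.

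RefSeq (GRCm38.p6) gave a start window for 8 of the 9 genes. The sequences below are the 250 bases before the RefSeq start of the heavy chain and B2m genes, shown because these encode the class I molecule itself. The last is the 225 bases between the RefSeq starts of Tap1 and Psmb9, which run in opposite directions. Some GENCODE genes begin further upstream than in RefSeq. The H2-D1 stretch and the last stretch lie within the GENCODE H2-D1 and Psmb9 genes, and the H2-T23 stretch lies partly within H2-T23. The sequences are written 5′ to 3′ on the strand of the gene (plus strand for the last). Capitals mark matches to an interferon-stimulated core (GAAA and GAAA with any 2 bases between) or a kappaB form (GGGGA and CCC with any 2 bases between), on either strand. The coordinates are chr17:34000348-34000597 for H2-K1, chr17:35262844-35263093 for H2-D1, chr2:122147437-122147686 for B2m, chr17:36032702-36032951 for H2-T23 and chr17:34187331-34187555 for the stretch between Tap1 and Psmb9.
H2-K1: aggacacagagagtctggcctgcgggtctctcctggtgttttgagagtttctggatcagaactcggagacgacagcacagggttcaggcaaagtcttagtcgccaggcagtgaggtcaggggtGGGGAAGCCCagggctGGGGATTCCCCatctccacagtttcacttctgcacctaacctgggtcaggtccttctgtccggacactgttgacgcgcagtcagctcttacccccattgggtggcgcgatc
H2-D1: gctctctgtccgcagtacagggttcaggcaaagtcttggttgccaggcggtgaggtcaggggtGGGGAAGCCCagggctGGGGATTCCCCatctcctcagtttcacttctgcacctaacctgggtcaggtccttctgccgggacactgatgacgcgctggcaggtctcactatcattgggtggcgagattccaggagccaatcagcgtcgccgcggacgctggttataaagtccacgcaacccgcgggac
B2m: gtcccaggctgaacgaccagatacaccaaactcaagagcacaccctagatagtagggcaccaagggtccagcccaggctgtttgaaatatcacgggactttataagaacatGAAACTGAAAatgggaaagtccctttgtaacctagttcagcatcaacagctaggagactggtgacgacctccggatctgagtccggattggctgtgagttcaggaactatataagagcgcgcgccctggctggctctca
H2-T23: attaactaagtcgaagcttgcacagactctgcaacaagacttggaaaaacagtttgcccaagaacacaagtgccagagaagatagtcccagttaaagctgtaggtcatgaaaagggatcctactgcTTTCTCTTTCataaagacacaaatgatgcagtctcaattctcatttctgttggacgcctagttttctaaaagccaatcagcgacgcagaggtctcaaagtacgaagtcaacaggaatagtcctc
Tap1 and Psmb9: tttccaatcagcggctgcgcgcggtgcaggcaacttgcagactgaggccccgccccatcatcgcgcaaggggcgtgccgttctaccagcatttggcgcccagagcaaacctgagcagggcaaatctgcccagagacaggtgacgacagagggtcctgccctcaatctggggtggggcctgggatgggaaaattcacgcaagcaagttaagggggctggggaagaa

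H2-K1 and H2-D1 share an unbroken run of 47 identical bases here, which holds all their kappaB matches. Each has 3 matches, of which a pair overlap on opposite strands, and 1.65% of all 32851 RefSeq start windows of 300 bases hold this motif. B2m and H2-T23 have the interferon-stimulated core, 139 and 124 bases before the RefSeq start, against 3.44% of all windows. Psmb8 alone of the 8 has a match to the gamma-activated form, TTC and GAA with any 3 bases between (8.30% of windows), and 5 of the 8 have TGACG (20.8% of windows). Tap1 and Psmb9 have TGACG through the same bases of their shared stretch, so that site is counted for both genes. A match is a run of letters and not a binding site. The search took these exact forms only, so a stretch without a match may still hold a looser form of the same element.

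Libraries held 15847985 to 31895808 counted reads (median 24530658). Values are normalized CPM, that is read counts scaled by library size with factors set over all 38 mice. App, to whose count the transgene adds, ranged from 1506 to 1809 CPM in WT and from 3228 to 4318 CPM in APPPS1ΔE9 mice, which also holds for 4 placebo-treated WT mice of 6 months whose genotype label conflicts with their titles. The study describes all mice as male, but Y-linked transcripts were at background in 12 of 38 libraries, 11 of them WT. Choroid plexus transcripts were abundant in some libraries, with Ttr over 1000 CPM in 10 of 16 mice of 6 months and 1 of 22 of 10 months. No lane held both genotypes at 10 months and only lane 5 did at 6 months, so lane and genotype cannot be told apart. Lane was also tied to chow. APPPS1ΔE9 mice of 6 months were all in lane 5 on placebo and all in lane 6 on anle138b. WT mice of 6 months were all in lane 4 on placebo. On anle138b WT mice 33 and 39 were in lane 4 and mice 41 and 83 in lane 5. At 10 months the chows of a genotype shared a lane only through placebo-treated WT mouse 56 (lane 4) and anle138b-treated APPPS1ΔE9 mouse 58 (lane 5). Chow effects and interactions are therefore not free of lane. The study describes WT mice as littermates of the APPPS1ΔE9 mice, but the labels do not say which mice shared a litter.

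The light chain stood far above the other genes, followed by the classical heavy chains. Per kb, H2-K1 was 1.55-fold above Tapbp, the highest of the processing genes, and their ranges over all mice overlapped. Per kb of annotated exon, over 38 mice, B2m was at 108.9 ± 23.4 CPM (SD, n = 38), H2-D1 at 14.4 ± 3.83, H2-K1 at 9.99 ± 2.15 and Tapbp, which encodes tapasin, at 6.46 ± 0.654. H2-T23, the nonclassical heavy chain also called Qa-1, was at 2.26 ± 0.459 and the transporter chains Tap2 and Tap1 at 2.03 ± 0.240 and 0.954 ± 0.148. The immunoproteasome subunits Psmb8 and Psmb9 were lowest of the 9, at 0.826 ± 0.194 and 0.632 ± 0.142 CPM per kb.

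**Figure D1:**
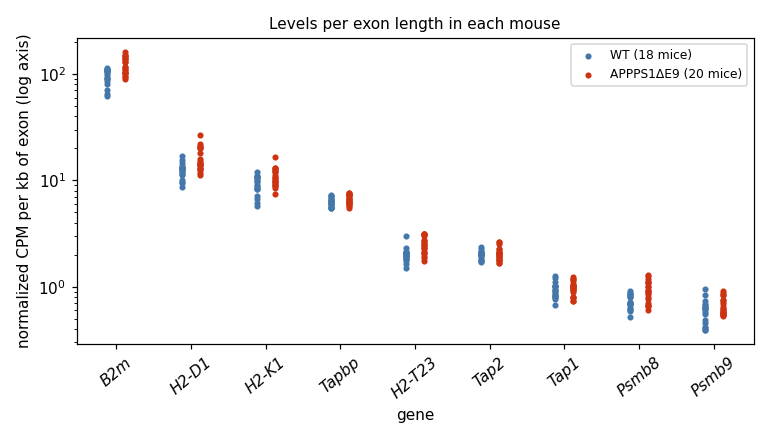
Normalized CPM per kb of exon (log axis) of each gene in each mouse, WT in blue and APPPS1ΔE9 in red, ordered by mean. B2m stands 7.57-fold above H2-D1, and the ranges of neighbours such as H2-T23 and Tap2 overlap.

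Within a mouse the upper part of the order per kb was the same in every mouse, given these annotated lengths. H2-D1 exceeded H2-K1 per kb, H2-K1 exceeded Tapbp and Tapbp exceeded H2-T23 in 38 of 38 mice. H2-T23 exceeded Tap2 in 27, Tap1 exceeded Psmb8 in 28 and Psmb8 exceeded Psmb9 in 35 of 38 mice, and the ranges of these neighbours overlapped. Without division by length, mean Tap2 (7.67 CPM) was above mean H2-T23 (6.53 CPM). The constitutive subunit Psmb5, which Psmb8 replaces in the immunoproteasome, was 26.04 to 69.1 times as high per kb as Psmb8 in the same mouse. Psmb6, the counterpart of Psmb9, was 42.8 to 162 times as high as Psmb9. Per kb the constitutive subunits were thus the more abundant transcripts in each of the 38 mice. The length is that of all annotated exons of a gene merged. It was 899 bases for Psmb5 against 3381 for Psmb8, and 1872 for Psmb6 against 3660 for Psmb9. The size of these ratios therefore depends on the annotated lengths.

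Parts of these transcripts are not unique. Of the runs of 50 bases in the annotated transcripts, 9.63% in H2-K1, 12.8% in H2-D1, 14.5% in H2-T23, 23.2% in Tapbp, 11.9% in Psmb8, 11.6% in Tap2, 4.19% in Psmb9 and 3.33% in Tap1 also occur in another gene. The counting used the intersection-nonempty mode of HTSeq, which leaves out a read that lies within several genes and cannot be given to 1 of them. How reads with several mapping positions were treated and whether strand was used is not given in the sources used here, so these 8 counts are less certain than that of B2m, which shares no such run.

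At 10 months, B2m was higher in APPPS1ΔE9 than in WT mice over both chows, and the other 8 genes did not pass the test. Among these genes the fitted differences of H2-D1, Psmb8 and H2-K1 came next to B2m, while those of Tapbp, Tap1 and Tap2 were the smallest. In edgeR's quasi-likelihood test with Benjamini-Hochberg adjustment over all genes, 1 of the 9 genes passed an adjusted p of 0.1, where 1.56% of 17668 tested genes did (275 genes). The median log2 fold change of the 9 genes was 0.27, against -0.004 for all tested genes, 8 of the 9 were above 0, and 6 of the 9 had an unadjusted p under 0.05, as did 7.07% of all genes.

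B2m was at 61.4, 74.5, 78.7, 94.3 and 94.5 CPM in placebo-treated WT and at 53.4, 55.6, 69.5, 91.9 and 92.4 CPM in anle138b-treated WT mice of 10 months. Placebo-treated APPPS1ΔE9 mice had 87.1, 87.2, 111, 119 and 126 CPM, and the 7 anle138b-treated APPPS1ΔE9 mice ranged from 77.9 through a median of 122 to 139 CPM. The genotypes overlapped, but 8 of 12 APPPS1ΔE9 mice lay above the highest WT mouse. The mean was 109.8 ± 21.4 CPM (SD, n = 12) in APPPS1ΔE9 and 76.6 ± 16.3 CPM (SD, n = 10) in WT mice, a log2 fold change of 0.52 ± 0.13 (SE, edgeR adjusted p = 0.048, 1.43-fold).

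The call held in 20 of 22 fits with 1 mouse left out (log2 fold change 0.47 to 0.56 over all 22). Without anle138b-treated WT mouse 60 or mouse 61, which had the lowest B2m levels, it was lost (edgeR adjusted p = 0.102 and 0.116, log2 fold change 0.47 in each). The WT mice of 10 months also differed by Y-linked expression. B2m averaged 65.5 ± 12.9 CPM in the 4 WT mice with it and 83.99 ± 14.6 CPM in the 6 without, against 107 ± 20.2 CPM in the 11 APPPS1ΔE9 mice with it. With Y-linked expression as a covariate the log2 fold change of B2m was 0.73 (edgeR adjusted p = 0.0035), and among mice with Y-linked expression alone it was 0.72 (edgeR adjusted p = 0.077).

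H2-D1, a classical heavy chain that presents peptides to CD8 T cells, was at 24.98, 31.998, 33.3, 39.7 and 43.8 CPM in placebo-treated WT and at 22.5, 24.2, 25.8, 35.2 and 37.2 CPM in anle138b-treated WT mice of 10 months. In placebo-treated APPPS1ΔE9 mice it was at 34.7, 36.6, 39.3, 52.2 and 52.2 CPM, and in the anle138b-treated ones it ranged from 28.9 through 46.5 to 68.1 CPM. Of the 12 APPPS1ΔE9 mice, 6 were above all WT mice, and the rest lay within the WT range. Over both chows the log2 fold change was 0.50 ± 0.15 (SE) with an edgeR adjusted p of 0.187, while DESeq2 called it (DESeq2 adjusted p = 0.055).

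H2-K1, the other classical heavy chain, was at 19.4, 26.3, 28.3, 32.1 and 35.3 CPM in placebo-treated WT and at 16.7, 17.96, 21.05, 31.3 and 32.2 CPM in anle138b-treated WT mice. Placebo-treated APPPS1ΔE9 mice had 26.3, 27.9, 30.6, 35.9 and 37.6 CPM, and the anle138b-treated ones ranged from 21.7 through 35.1 to 48.8 CPM. The groups overlapped broadly, with 5 of 12 APPPS1ΔE9 mice above all WT mice and a log2 fold change of 0.34 ± 0.15 (SE, edgeR adjusted p = 0.621).

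Psmb8, which replaces a constitutive subunit to change how proteasomes cut, was low throughout. It was at 1.76, 2.37, 2.70, 2.92 and 2.92 CPM in placebo-treated WT, and at 2.04, 2.15, 2.44, 2.70 and 2.86 CPM in anle138b-treated WT mice of 10 months. Placebo-treated APPPS1ΔE9 mice had 2.68, 2.86, 2.92, 3.13 and 4.22 CPM, and the anle138b-treated ones ranged from 2.23 through 3.67 to 4.38 CPM. Here too 8 of 12 APPPS1ΔE9 mice exceeded all WT mice, and the log2 fold change was 0.39 ± 0.12 (SE, edgeR adjusted p = 0.223). The lowest of the 8, mouse 87, was nearly tied with WT mouse 54 (2.9207 against 2.9193 CPM). For B2m the lowest of the 8 was at 111 CPM and the highest WT mouse at 94.5 CPM. Psmb9, the other subunit of this kind, differed by 0.16 ± 0.15 (SE) on the log2 scale, and no APPPS1ΔE9 mouse exceeded the highest WT mouse.

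**Figure D2:**
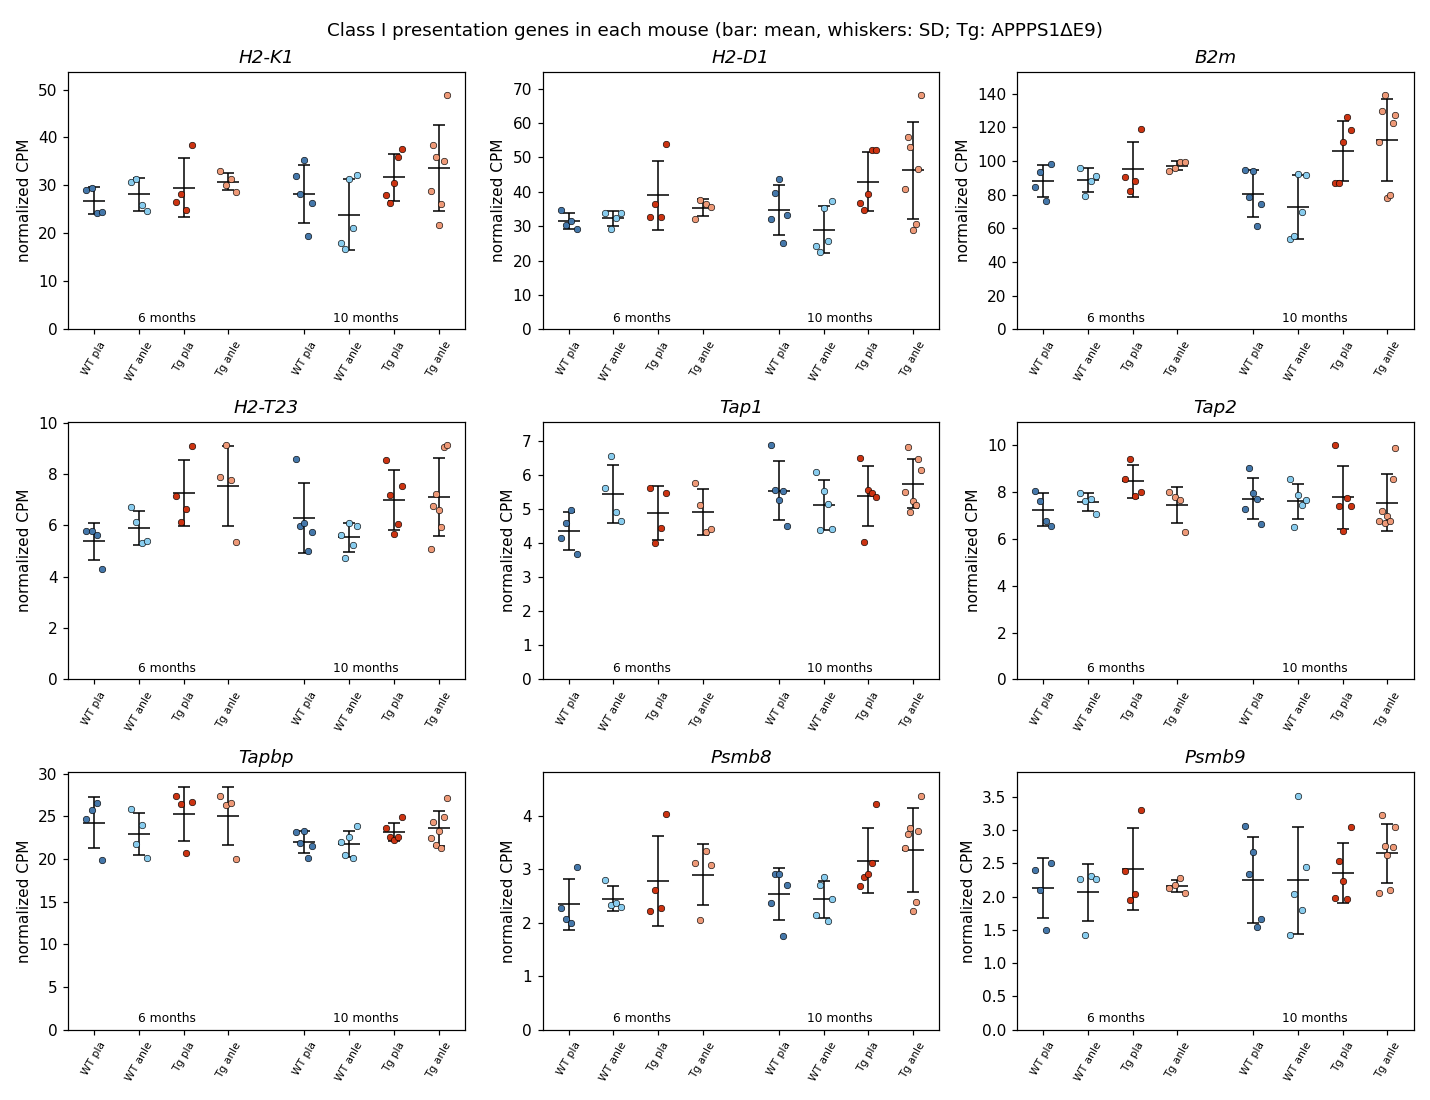
Normalized CPM of the 9 genes in every mouse (points), by group, with the group mean (bar) and SD (whiskers); WT is in blue and APPPS1ΔE9 (Tg) in red, with placebo (pla) darker than anle138b (anle). At 10 months B2m lies at 53.4 to 94.5 CPM in WT and at 77.9 to 139 CPM in APPPS1ΔE9 mice.

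No gene of the 9 separated the genotypes completely at 10 months, where 0.408% of tested genes were higher in every APPPS1ΔE9 than in every WT mouse. For the peptide-loading genes the fitted log2 differences over both chows were 0.09 ± 0.04 (SE) for Tapbp, 0.07 ± 0.09 for Tap1 and -0.01 ± 0.08 for Tap2. The direction for Tap2 turned to 0.01 without the filter on low counts, so it has none that can be read. The 95% interval was 0.003 to 0.183 for Tapbp (unadjusted p = 0.044, edgeR adjusted p = 0.671), -0.12 to 0.26 for Tap1 and -0.18 to 0.17 for Tap2. H2-T23 differed by 0.27 ± 0.11 (SE, edgeR adjusted p = 0.523).

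Taken by chow at 10 months, none of the 9 genes passed edgeR's test in the placebo-treated mice, where 0.324% of tested genes did, or in the anle138b-treated mice, where 0.723% did. Unadjusted p was under 0.05 for 1 and 5 of the 9 genes, against 4.10% and 5.78% of all genes. DESeq2 called 0 and 1 (B2m) of the 9, against 0.636% and 1.1% of all genes. The log2 fold change of B2m was 0.39 ± 0.14 (SE) with placebo and 0.63 ± 0.19 with anle138b. H2-D1 gave 0.30 ± 0.17 and 0.67 ± 0.22, H2-K1 gave 0.16 ± 0.16 and 0.49 ± 0.22, and Psmb8 gave 0.31 ± 0.18 and 0.46 ± 0.18. The difference between these genotype effects was tested as the interaction of genotype and chow, and 0 of the 9 genes passed it in edgeR or DESeq2 (0% of tested genes in edgeR, none of the 9 with an unadjusted p under 0.05). At 6 months the interaction gave 0 of the 9 genes as well in edgeR and DESeq2 (0% and 0.126% of tested genes). There too none of the 9 had an unadjusted p under 0.05, against 7.99% of all genes. At 10 months the interaction of B2m was 0.24 on the log2 scale, with a 95% interval from -0.29 to 0.77.

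At 6 months all 9 genes had fitted differences above 0 between APPPS1ΔE9 and WT mice over both chows, and none passed. That of Tap1, 0.01 ± 0.11 (SE), turned below 0 in 7 of 16 fits with 1 mouse left out and with the Y-linked covariate (-0.1345), so its direction cannot be read. Their median log2 fold change was 0.12 (range 0.01 to 0.39), against -0.01 for all tested genes. Of all genes 0.172% were called by edgeR, and 2 of the 9 genes, H2-T23 and H2-D1, had an unadjusted p under 0.05, as did 10.5% of all genes. DESeq2 called none of the 9, against 0.678% of all genes. H2-T23, whose product presents leader peptides of other class I chains to receptors of natural killer cells, had the largest difference of the 9, at 0.39 ± 0.11 (SE, edgeR adjusted p = 0.277).

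H2-T23 was at 4.32, 5.64, 5.78 and 5.80 CPM in placebo-treated WT and at 6.14, 6.64, 7.14 and 9.10 CPM in placebo-treated APPPS1ΔE9 mice of 6 months. These 2 groups did not overlap, as for 2.59% of tested genes in that direction, and edgeR called none of the 9 genes there (0.0715% of tested genes). An unadjusted p under 0.05 was reached by 1 of the 9 and by 11.1% of all genes. With anle138b H2-T23 was at 5.31, 5.39, 6.14 and 6.74 CPM in WT and at 5.35, 7.78, 7.90 and 9.12 CPM in APPPS1ΔE9 mice, which overlapped by 1 APPPS1ΔE9 mouse. Among the anle138b-treated mice of 6 months 0 of the 9 genes passed (0.047% of tested genes), and 2 of the 9 had an unadjusted p under 0.05, as did 5.64% of all genes. DESeq2 called none of the 9 in either comparison, against 0.829% of all genes with placebo and 0.276% with anle138b.

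At 6 months B2m was at 76.5, 84.6, 93.3 and 98.1 CPM in placebo-treated WT and at 79.0, 88.3, 90.97 and 96.0 CPM in anle138b-treated WT mice. Placebo-treated APPPS1ΔE9 mice had 82.3, 88.4, 90.6 and 119 CPM and anle138b-treated ones 94.1, 96.2, 99.4 and 99.7 CPM. The difference over both chows was 0.12 ± 0.07 (SE) on the log2 scale, within the spread between mice. The single high placebo-treated APPPS1ΔE9 mouse, mouse 75, was also the highest of its group for H2-D1 (53.8 CPM), H2-K1 (38.4 CPM), H2-T23, Psmb8 (4.03 CPM) and Psmb9 (3.30 CPM). Without it the placebo differences of B2m and H2-K1 were -0.02 and -0.01.

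**Figure D3:**
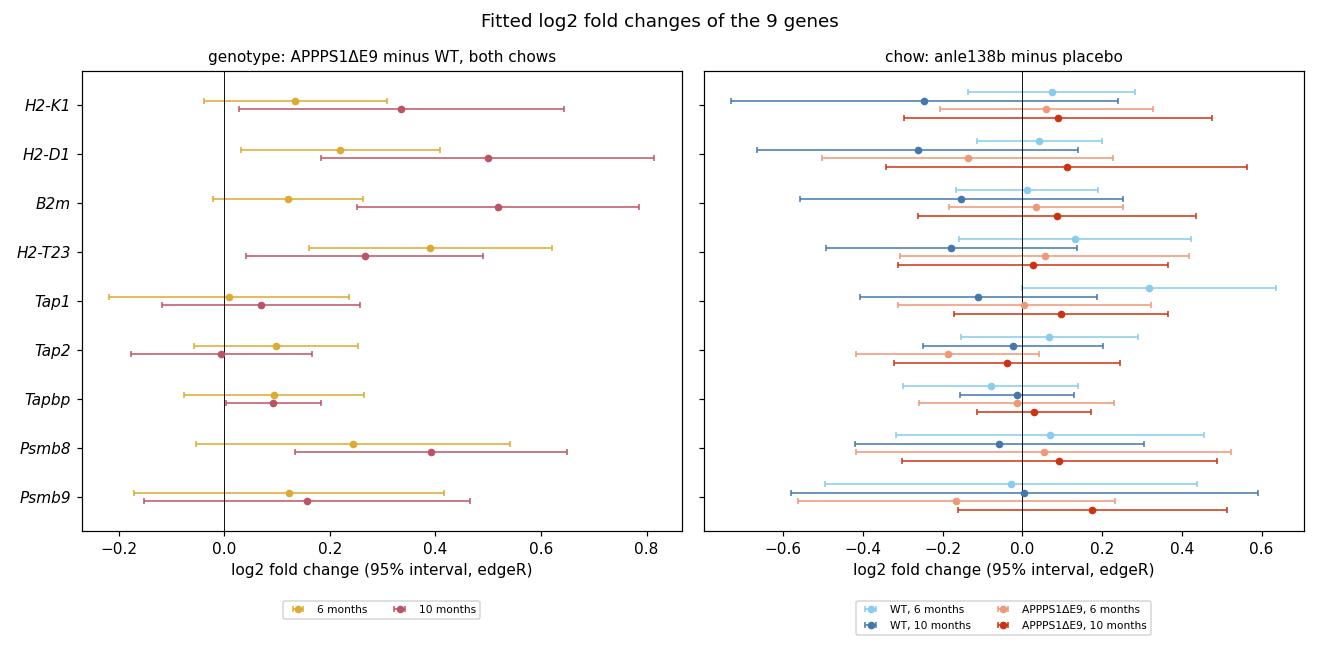
Fitted log2 fold changes of the 9 genes with 95% intervals from edgeR, for genotype over both chows (left; 6 months in yellow, 10 months in red) and for chow within each genotype and age (right). At 10 months B2m and H2-D1 lie near 0.5 for genotype, and all chow intervals include 0.

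The genotype effect itself was compared between the ages. With placebo 0 of the 9 genes passed (0% of tested genes) and with anle138b 0 of the 9 passed (0.028% of tested genes). DESeq2 made no call among the 9 either, against 0.0905% and 0.246% of all genes. No unadjusted p of the 9 was under 0.05, against 6.16% and 5.84% of all genes. For B2m the genotype effect at 10 months minus that at 6 months was 0.28 with placebo (95% interval -0.15 to 0.71) and 0.50 with anle138b (-0.02 to 1.01). For H2-T23 it was -0.27 and 0.01.

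Age cannot be told apart from cohort. The labels name no sequencing run, but the titles repeat the same sample number and lane for different mice of both cohorts. An example is mouse 15 of 6 months and mouse 59 of 10 months in lane 6. The cohorts may thus have been sequenced in separate runs, and age cannot be told apart from such runs. Between ages in WT mice, 48.6% of tested genes passed. None of the 9 genes was among them, nor among the 48.4% called by DESeq2. An unadjusted p under 0.05 was reached by none of the 9 and by 48.9% of all genes. The fitted log2 differences, 10 minus 6 months, ran from -0.20 for B2m to 0.14 for Tap1. Leaving out 1 WT mouse brought a gene past the threshold in 4 cases, B2m without mouse 62 or 64 and Tapbp without mouse 83 or 77.

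Chow made no difference that the test could show for any of the 9 genes. Lane was tied to chow, fully in APPPS1ΔE9 mice of 6 months and nearly so at 10 months, so these tests do not separate chow from lane there. In WT mice of 6 months lane was tied to chow in part. In WT mice 0% of tested genes passed at 6 and at 10 months. In APPPS1ΔE9 mice 0.0529% passed at 6 months and 0% at 10 months. In all 4 comparisons edgeR and DESeq2 called 0 of the 9 genes and no unadjusted p of the 9 was under 0.05. Of all genes DESeq2 called 1.2% in APPPS1ΔE9 mice of 6 months and 0% in the other 3 comparisons. Unadjusted p was under 0.05 for 13.1% of all genes in APPPS1ΔE9 mice of 6 months and 1.48% in those of 10 months. In WT mice it was for 1.85% at 6 and 1.25% at 10 months. In APPPS1ΔE9 mice of 10 months the change with anle138b was 0.09 on the log2 scale for B2m (95% interval -0.26 to 0.44), 0.11 for H2-D1 (-0.34 to 0.56) and 0.09 for H2-K1 (-0.30 to 0.47). In WT mice of the same age it was -0.15 for B2m (-0.56 to 0.25), -0.26 for H2-D1 (-0.67 to 0.14) and -0.25 for H2-K1 (-0.73 to 0.24). The largest fitted chow difference was that of Tap1 in WT mice of 6 months, 0.32 (-0.002 to 0.64). Of these, the anle138b-treated mice in lane 4, the lane of the placebo-treated ones, were at 5.61 and 6.54 CPM. Those in lane 5 were at 4.92 and 4.64 CPM.

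Across mice, the classical heavy chains and B2m moved together. After the mean of each group was removed from the log2 CPM, Pearson's r over 38 mice was 0.89 for H2-K1 and H2-D1 (Spearman's rho 0.83), 0.86 for H2-K1 and B2m and 0.85 for H2-D1 and B2m. Psmb8 followed them at 0.65 to 0.72 and Psmb9 at 0.57 to 0.69. H2-T23 followed less closely, at 0.31 with B2m, 0.40 with H2-D1 and 0.54 with H2-K1. The points share libraries, so extraction, dissection and depth are common to both members of a pair.

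**Figure D4:**
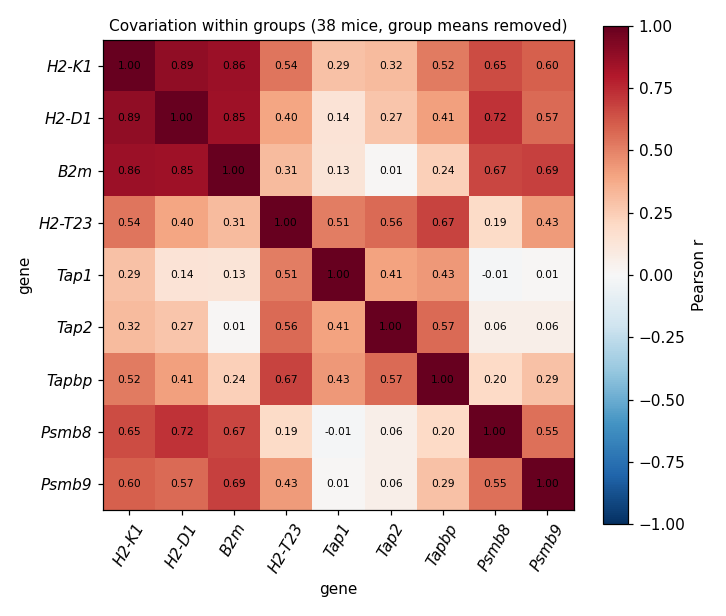
Pearson's r between the 9 genes over 38 mice, from log2 CPM with the mean of each of the 8 groups removed. B2m, H2-K1, H2-D1, Psmb8 and Psmb9 form a block of positive values, and Tap1 and Tap2 are near 0 against B2m and the immunoproteasome genes.

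The transporter genes did not belong to that block. Tap1 had r of 0.13 with B2m, -0.01 with Psmb8 and 0.01 with Psmb9. The RefSeq starts of Tap1 and Psmb9 flank the short stretch printed above. Tap2 had r of 0.01 with B2m. Tap1 and Tap2 were closer to H2-T23, at 0.51 and 0.56, and Tapbp and H2-T23 had r of 0.67. Over all 36 pairs r had a median of 0.42 and was above 0.5 in 16. The correlation of the mean of the 9 with the library's log2 total count was 0.06.

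Beyond the 9 genes, the wider pathway was counted from a list of 31 genes of other heavy chains, peptide-loading chaperones, proteasome activators and the interferon receptors and factors that control them. In the 10-month genotype comparison over both chows 27 of the 31 were tested, 20 were fitted higher, and none passed in either direction. Their median log2 fold change was 0.07. Nlrc5, the transactivator of class I genes, gave 0.26 ± 0.13 (SE). At 6 months none of 28 tested passed, with a median of 0.01. The constitutive proteasome subunits Psmb5, Psmb6 and Psmb7 had a median of 0.004 at 10 months, and none of the 3 passed.

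Microglial markers also rose in APPPS1ΔE9 mice. At 10 months 10 of 12 markers passed in APPPS1ΔE9 over WT mice, as did 1.56% of all tested genes. The median log2 fold change of the 12 was 0.59. Among those that passed were Tyrobp (1.39 ± 0.10, SE) and Trem2 (1.36 ± 0.13, SE), a signalling adaptor and its receptor. The summed level of the 12 markers was 395 to 510 CPM in WT and 555 to 908 CPM in APPPS1ΔE9 mice, with no overlap. P2ry12 and Tmem119 were the 2 markers that did not pass. At 6 months none of the 12 passed, and the sums were 434 to 542 and 488 to 764 CPM. The part of microglial number or state in the B2m difference was not tested. Within groups the mean of the microglial markers and the mean of the 9 genes had r of 0.66 over 38 mice, as a description.

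Of 12 interferon-response genes, 3 rose and passed at 10 months over both chows, where 1.56% of all tested genes passed. These were Bst2 (0.59 ± 0.16, SE), Irf9 (0.25 ± 0.07) and Stat2 (0.19 ± 0.05). All 12 were fitted higher, with a median of 0.31. Of 4 astrocyte markers, Gfap alone passed, at 0.99 ± 0.19 (SE) on the log2 scale. Only 2 of the 4 were fitted higher, and their median was 0.13. None of 7 endothelial, 7 class II, 5 choroid plexus or 6 hippocampal neuron genes passed. Markers of T cells, of which CD8 T cells read class I molecules, were close to 0. The 6 genes include Cd4 as well as Cd8a and Cd8b1. Their sum was 0.284 to 1.18 CPM in WT and 0.521 to 1.05 CPM in APPPS1ΔE9 mice of 10 months, and Cd3e was at 0 in some mice of each genotype. Markers of natural killer cells were not examined. The sum of 3 B-cell markers was 0.171 to 0.540 and 0.134 to 0.470 CPM.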

How the data were processed

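RNA of the hippocampus of 38 mice was sequenced from TruSeq mRNA libraries. Reads were aligned to mm10 (STAR) and assigned to genes (HTSeq, intersection-nonempty mode) by the authors, whose deposited files hold raw counts of 48709 genes per mouse. The annotation release and strandedness are not given in the sources used here. Groups were taken from the sample titles. Symbols, coordinates and exon lengths came from GENCODE M21 (48349 genes matched).

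Genes passing filterByExpr of edgeR 4.0.16 (minimum count 10, minimum total count 15) were scaled with TMM and tested with the quasi-likelihood test in R 4.3.3, per pair of groups or in fits over 4 groups. Adjusted p under 0.1 (Benjamini-Hochberg, all tested genes) was called. The SE is the log2 fold change divided by the root of F, and 95% intervals use the test's degrees of freedom. The scripts were tested on simulated data. Alternatives were DESeq2 1.42.0, RLE size factors, no filter, adjusted p under 0.05, Y-linked expression (limit 50 CPM) as a covariate or a restriction, 1 lane, all 4 groups of an age in 1 fit, the replicate number as a block, a Ttr covariate and each mouse left out. Within-group values are log2 CPM with a prior count of 2.

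The 9 genes and all other lists were chosen with earlier results of these data known. All 9 are named. Other genes were named from the marker lists and the 10 most correlated genes, and Nlrc5, Tyrobp, Trem2 and the calls among interferon and astrocyte genes were chosen after their values were seen. Same-numbered mice did not deviate together in every pair (lowest correlation per comparison -0.548 to 0.0002), so the numbers were not used to pair mice. No libraries were identical, and all 75 pairs of mice within a group differed by more than counting error, with chi-square over its degrees of freedom from 3.17 to 65.3.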

Additional observations from a re-analysis of the deposited data

Results flagged for a closer look

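In 72 sets of 1 gene in 1 group, 6 held a mouse far from the others of its group, where the gap to the nearest mouse as a share of the group's range exceeded Dixon's limit. Chance gives about 1 in 20 such sets. At 6 months H2-T23 was low in placebo-treated WT mouse 77 (4.32 CPM, next 5.64, share 0.893). Tapbp was low in placebo-treated APPPS1ΔE9 mouse 74 (20.7 CPM, next 26.5, share 0.866) and in anle138b-treated APPPS1ΔE9 mouse 84 (20.1 CPM, next 26.3, share 0.845). In anle138b-treated WT mice Psmb8 was high in mouse 33 (2.80 CPM, next 2.36, share 0.876) and Psmb9 low in mouse 39 (1.42 CPM, next 2.26, share 0.94). At 10 months Psmb8 was high in placebo-treated APPPS1ΔE9 mouse 100 (4.22 CPM, next 3.13, share 0.711).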

How the results depend on the processing

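Depth limits Psmb8 and Psmb9, which had few reads, and groups of 4 to 7 mice limit all comparisons. In the 10-month comparison over both chows DESeq2 called 2 of the 9 genes, B2m and H2-D1 (DESeq2 adjusted p = 0.055), against 1 by edgeR. Of all tested genes 1.82% were called by DESeq2 and 1.56% by edgeR. With the replicate block, which rests on numbers that do not pair the mice, the count was 0 and B2m was at 0.4862 (edgeR adjusted p = 0.134). Leaving out 1 mouse gave 0 to 3 calls, 0 without anle138b-treated WT mouse 60 or 61 and 3 (B2m, H2-D1 and Psmb8) without anle138b-treated APPPS1ΔE9 mouse 97, and B2m stayed at 0.4669 to 0.5647. Over all genes these fits called 224 to 296. In the anle138b-treated mice of 10 months DESeq2 and the Y-linked covariate each called 1 of the 9 genes, B2m (0.6318 and 0.881, DESeq2 adjusted p = 0.082 and edgeR adjusted p = 0.027). Over all genes they called 189 and 272. In WT mice leaving out 1 mouse gave 0 to 1 calls between ages. The sign turned for genes near 0. With the Y-linked covariate Tap1 and Tapbp were at -0.0116 and -0.0411 in placebo-treated mice of 6 months, Tap1 and Tap2 at 0.1048 and -0.0121 in those of 10 months, and Tap1 at -0.1345 over both chows at 6 months (-0.1462 among mice with Y-linked expression). Tap2 was at -0.0051 with the replicate block in placebo-treated mice of 10 months, and over both chows at 0.0077 without the filter and 0.0088 among mice with Y-linked expression. The replicate block changed no other call among the 9. The causes were not tested. A Ttr covariate, chosen after seeing the data, left B2m called (0.5179, edgeR adjusted p = 0.059). Leaving out 1 mouse also turned signs. In placebo-treated mice of 6 months H2-K1 ran from -0.0139 to 0.212, B2m from -0.0188 to 0.1759 and Tapbp from -0.0196 to 0.1415, and with anle138b Tap2 from -0.0627 to 0.0486 and Psmb9 from -0.0737 to 0.1151. In placebo-treated mice of 10 months Tap1 ran from -0.1169 to 0.0512, Tap2 from -0.1011 to 0.0671 and Psmb9 from -0.0454 to 0.1841, and with anle138b Tap2 from -0.0932 to 0.0336. Over both chows Tap1 ran from -0.0325 to 0.067 at 6 months and Tap2 from -0.0484 to 0.0259 at 10 months. Over all genes, calls in placebo-treated mice of 6 months were 12, against 4 to 139 under the alternatives other than leaving out a mouse and 6 to 205 with 1 mouse left out. With anle138b they were 8 against 6 to 47 and 9 to 44, over both chows 30 against 5 to 118 and 13 to 32, and for chow in APPPS1ΔE9 mice 9 against 3 to 204 and 6 to 317. The counts of 205 and 317 were without placebo-treated APPPS1ΔE9 mouse 17. At 10 months they were 55 against 14 or up to 1.96 times as many (37 to 67) with placebo, 124 against 20 to 272 (63 to 151) with anle138b and 275 against 141 to 322 (224 to 296) over both chows, the ranges in parentheses being those with 1 mouse left out. For age they were 8624 against 3731 to 9146 (8035 to 8802) in WT mice, and for the change of the genotype effect 0 against 0 to 16 (0 to 1) with placebo and 5 against 4 to 44 (2 to 23) with anle138b. For the interactions they were 0 against 0 to 22 (0 to 22) at 6 and 0 to 2 (0 to 0) at 10 months.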

Other observations

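The 10 genes whose within-group levels followed the mean of the 9 most closely over 38 mice were led by H2-Q4, another class I heavy chain (Pearson's r 0.85), which may share reads with its relatives. The others were Gm26694, Spi1, Unc93b1, Cyba, Apod, Hvcn1, C1qc, Atf5 and Mt1, with r of 0.76 to 0.80. Spi1 encodes the myeloid factor PU.1, Unc93b1 a chaperone of endosomal Toll-like receptors, Cyba a subunit of the phagocyte oxidase and C1qc a chain of complement C1q. H2-Q4 itself differed by 0.22 ± 0.19 (SE) on the log2 scale between genotypes at 10 months and did not pass (edgeR adjusted p = 0.934).

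The wider lists followed the 9 genes to unequal degrees. The mean of the interferon-response genes had r of 0.55 with that of the 9 genes, class II genes 0.47, astrocyte markers 0.39, endothelial markers 0.29 and choroid plexus markers 0.10. These values describe 38 libraries that share their preparation.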
